A study of Sus scrofa with 8 samples.

Results

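The enzymes that make sphingolipids were examined in the pig liver through 10 of the 18103 genes listed. These genes were chosen by name, with earlier results of these data known. They were SPTLC1, SPTLC2 and SPTLC3 (subunits of serine palmitoyltransferase), CERS2, CERS4, CERS5 and CERS6 (ceramide synthases), DEGS1 (dihydroceramide desaturase), SGMS1 (sphingomyelin synthase) and UGCG (glucosylceramide synthase). Hepatic RNA of male Landrace x Large White pigs was sequenced in 8 libraries, each of them a pool of 2 pigs. In the initial state (labelled Control and healthy), 4 pools came from pigs of 4 months of age that had not received the steatotic diet. In steatosis, 4 pools came from pigs of 6 months of age after 2 months on that diet, which was rich in saturated fat, fructose, cholesterol and cholate, deficient in methionine and restricted in choline. Both groups came from 1 set of animals, and which pigs entered pools of the same number is not stated in the sources used here. Liver was taken by biopsy in the initial state and after euthanasia in steatosis, so that diet, age and way of sampling cannot be told apart. Expression was deposited as FPKM, fragments scaled to transcript length and to the mapped fragments of the library, which allows levels of different genes to be compared per length.

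Sphingolipid synthesis begins in the endoplasmic reticulum, where serine palmitoyltransferase condenses serine with palmitoyl-CoA. SPTLC1 is the shared subunit of that enzyme and pairs with either SPTLC2 or SPTLC3, which carry the cofactor. Ceramide synthases then attach a fatty acid whose length depends on the synthase, DEGS1 introduces the double bond that turns dihydroceramide into ceramide, and ceramide is used in the Golgi for sphingomyelin or for glucosylceramide. In liver, ceramide synthesis is known as a route taken by saturated fatty acids, and hepatocytes are known for ceramides with very long acyl chains.

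SPTLC2 rose 1.91-fold in steatosis, SGMS1 rose 1.4-fold, and CERS4 fell to 0.712 of its initial level. The other 7 genes showed no change that passed the test, and SPTLC3 lay too low to be tested. A gene was called when its adjusted p from limma was under 0.05. The adjustment covered the 13175 genes that reached 0.3 FPKM in 4 or more libraries, and 2 of the 9 tested members were higher and 1 was lower. Among all tested genes 26.7% were higher and 2.28% lower by the same rule. The share of members higher was therefore near that of all genes, and the lower direction rests on a single member. The study set its limits at 0.01 for the adjusted p and at 1 for the log2 fold change in either direction, and by these 0 of the 9 members were called in limma, against 6.01% of all genes higher and 0.334% lower. At an unadjusted p under 0.05, 2 were higher and 1 was lower. The median log2 fold change was 0.13 over the 9 members and 0.25 over all tested genes.

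This general shift of 0.25 touches each small difference given here. When libraries were scaled by the median of their gene-wise ratios to an average library, the median of all genes became -0.01 and that of the members -0.14. SPTLC2 stayed higher (log2 fold change 0.65, adjusted p = 0.00365) and CERS4 stayed lower (-0.75, adjusted p = 0.00509), whereas SGMS1 lost its call (0.19, adjusted p = 0.366). Under this scaling 11.6% of all tested genes were higher and 9.76% lower, so 1 member in each direction again lay near the background.

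**Figure D1:**
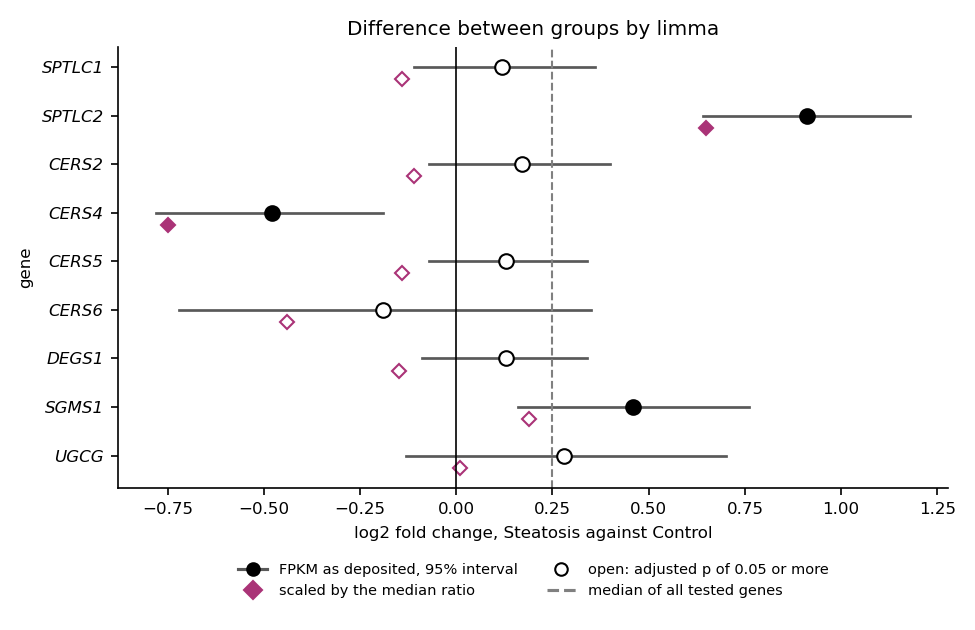
Log2 fold change of steatosis against the initial state for the 9 tested enzymes (horizontal axis), by limma on FPKM as deposited (circles with 95% intervals) and after scaling by the median ratio (diamonds). Filled symbols have an adjusted p under 0.05. SPTLC2 at 0.91 and CERS4 at -0.48 stay filled under both, and SGMS1 at 0.46 does not.

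The tissue matched its label. All hepatocyte markers were found in every library, their sum lying between 56956 and 89527 FPKM before the diet and between 51103 and 62579 FPKM after it. Most of this sum was ALB, at 41268.1 to 71002.95 FPKM before the diet and at 33168.23 to 43509.32 FPKM after it. Of the 9 rows (TF has 2 gene IDs) 2 were higher and 0 lower, but 0 higher and 2 lower with the median ratio scaling. Macrophage markers summed to between 1087 and 1412 FPKM in the initial state and to between 2081 and 2569 FPKM in steatosis, with 8 of 12 genes higher and 0 lower (6 and 2 with the median ratio scaling). Among them GPNMB ranged from 17.6 to 32.61 FPKM and from 405.14 to 1096.22 FPKM in the same order, and TREM2 was listed at 0 in 2 initial pools. Most of the rise of the sum was that of GPNMB alone, with means of 24.1 and 776 FPKM. GPNMB and TREM2 had the largest log2 fold changes of the 12 (4.94 and 4.98). CD14 and CD5L went the other way (-0.19 and -0.34, adjusted p from limma 0.186 and 0.0709). They were the 2 lower genes with the median ratio scaling. Of the markers of other cells, 2 of 7 endothelial, 3 of 7 stellate cell, 1 of 4 cholangiocyte and 1 of 6 T and NK cell genes were higher, and 0 were lower. With the median ratio scaling 1 gene of each of these 4 lists was higher. These lists moved in the same comparison as the enzymes, and their part in the results was not tested. In bulk RNA, more cells of a type and more RNA per cell cannot be told apart. Pool 1 of the initial state stood apart, with skeletal muscle markers at a sum of 2777 FPKM (0.82 to 20.8 in the other initial pools, 0.1 to 0.35 in steatosis) and stomach mucosa markers at 1516 FPKM (5.52 to 28.4 and 5.73 to 6.28). Of these lists 1 muscle gene and 1 stomach gene passed the filter, and the muscle gene was lower. Without this pool 1 hepatocyte, 1 endothelial and 2 cholangiocyte genes were higher, and the other counts of these cell types did not change.

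The order of levels was nearly fixed. From high to low it was CERS2, CERS4, DEGS1, CERS5, SGMS1, UGCG, SPTLC1, SPTLC2, CERS6 and SPTLC3 in each of the 4 initial pools. CERS2 exceeded 98% of all listed genes in mean FPKM over the 8 libraries, CERS4 94.4%, DEGS1 91.2% and CERS5 81.2%. SPTLC1 and SPTLC2, which catalyse the first step, lay near the middle of all genes, at 57.6% and 56.9%, and SPTLC3 at 15.7%. In steatosis SPTLC2 stood above SPTLC1 in all 4 pools and above UGCG in pool 4. The values of neighbours in this order did not overlap within either group, except those of CERS5 and SGMS1 in steatosis, where SGMS1 exceeded CERS5 in pool 2.

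**Figure D2:**
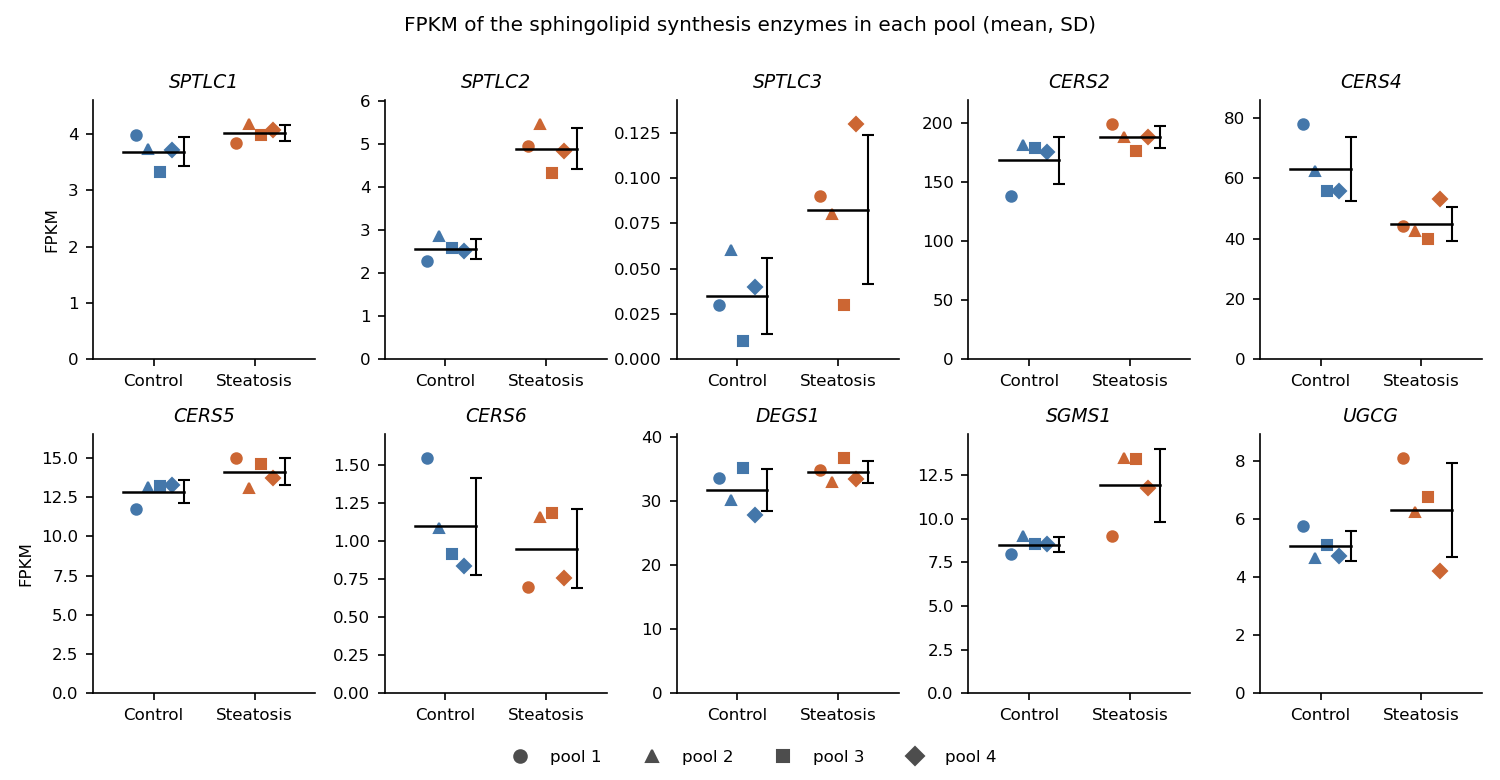
FPKM (vertical axes, each from 0) of the 10 enzymes in the 4 pools of the initial state (Control, blue) and the 4 pools of steatosis (orange). The symbol shape gives the pool number, the horizontal line the mean and the bar the SD between pools. The groups do not overlap for SPTLC2 and CERS4, and SPTLC3 stays at or below 0.13 FPKM in every pool.

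SPTLC2 (gene 100158010, chromosome 7 of Sscrofa11.1, 100545360 to 100638973) encodes the catalytic partner of SPTLC1. It stood at 2.28, 2.85, 2.58 and 2.51 FPKM before the diet (pools 1 to 4, as in all such series) and at 4.94, 5.47, 4.32 and 4.84 FPKM after it. Every steatosis pool lay above every initial pool. Groups without overlap and higher in steatosis were found for 29.6% of all tested genes. The mean rose from 2.55 ± 0.235 to 4.89 ± 0.471 FPKM (SD, n = 4 pools). Its log2 fold change was 0.91 (SE 0.12, 95% interval 0.64 to 1.18, adjusted p = 0.000711), and 9.76% of the tested genes had a larger one. The two-sided exact permutation test gave p = 0.0286, the smallest that 4 pools against 4 allow. Leaving out any 1 library gave log2 fold changes from 0.86 to 0.97, with an adjusted p of at most 0.00366.

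SPTLC1 (gene 100739638, chromosome 14, 3081964 to 3138113) stood at 3.97, 3.73, 3.33 and 3.71 FPKM before the diet and at 3.84, 4.18, 3.98 and 4.07 FPKM after it. The groups overlapped through pool 1. The log2 fold change of 0.12 (95% interval -0.11 to 0.36, adjusted p = 0.398) did not pass and turned to -0.14 with the median ratio scaling. It was 0.16 without pool 1 of the initial state. On the scale of FPKM as deposited the interval spans a fold of 0.926 to 1.28, which lies below the interval of 1.56 to 2.27 for SPTLC2.

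SPTLC3 (gene 100519280, chromosome 17, 21769388 to 21903269), the alternative catalytic subunit, was listed at 0.03, 0.06, 0.01 and 0.04 FPKM before the diet and at 0.09, 0.08, 0.03 and 0.13 FPKM after it. All values lay under 0.3 FPKM. The most frequent low value among genes of 900 to 1000 bases, 0.06 FPKM in every library, is taken as that of 1 fragment, and scaled to the 5610 bases of SPTLC3 it corresponds to about 0.01 FPKM. The listed values would then rest on about 1 to 5.9 fragments per initial pool and 3 to 12.9 per steatosis pool, an estimate that leaves out effective length. The means of 0.035 ± 0.0208 and 0.0825 ± 0.0411 FPKM (SD, n = 4 pools) gave a two-sided p of 0.114 in the exact permutation test. By the same estimate the SPTLC2 values rest on 229 to 287 fragments in the initial state and on 438 to 555 in steatosis.

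CERS2 (gene 100156737, chromosome 4, 98250773 to 98260504), the synthase of very long chain ceramides, stood at 138.38, 181.4, 178.78 and 175.25 FPKM before the diet and at 199.55, 188.21, 176.22 and 188.39 FPKM after it. The lowest value was that of pool 1 of the initial state, the pool with the muscle and stomach markers. The log2 fold change was 0.17 (95% interval -0.07 to 0.4, adjusted p = 0.254), 0.07 without that pool and -0.11 with the median ratio scaling. The gene model overlaps that of SETDB1 over 704 bases, and no source used here states counting by strand. SETDB1 lay between 3.6 and 5.26 FPKM.

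CERS4 (gene 100127167, chromosome 2, 71004418 to 71047968), a synthase of long chain ceramides, stood at 78.09, 62.38, 55.68 and 55.75 FPKM before the diet and at 44.11, 42.36, 39.9 and 53.1 FPKM after it. The groups did not overlap, which held for 2.53% of the tested genes in the lower direction. The mean fell from 63 ± 10.6 to 44.9 ± 5.75 FPKM (SD, n = 4 pools). Its log2 fold change was -0.48 (SE 0.13, 95% interval -0.78 to -0.19, adjusted p = 0.0237). A smaller log2 fold change was found for 3.3% of the tested genes. The exact permutation test gave a two-sided p of 0.0286. Without pool 1 of the initial state, which held the highest value, the log2 fold change was -0.37 (adjusted p = 0.0416). The call was lost without pool 1, 2 or 3 of steatosis, with an adjusted p of 0.0524, 0.0627 and 0.0655.

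CERS5 and CERS6 are known for ceramides with a palmitoyl chain. CERS5 (gene 110260661, chromosome 5, 16038918 to 16070103) stood at 11.75, 13.16, 13.21 and 13.26 FPKM before the diet and at 15, 13.09, 14.59 and 13.74 FPKM after it. The groups overlapped, and the log2 fold change was 0.13 (95% interval -0.07 to 0.34, adjusted p = 0.29), -0.14 with the median ratio scaling and 0.09 without pool 1 of the initial state. CERS6 (gene 100126279, chromosome 15, 74927088 to 75261558) stood at 1.55, 1.09, 0.92 and 0.84 FPKM before the diet and at 0.7, 1.16, 1.19 and 0.76 FPKM after it. Pools 2 and 3 were higher in steatosis and pools 1 and 4 lower, and the log2 fold change of -0.19 had the widest interval of the 9 (-0.72 to 0.35, adjusted p = 0.581). It was -0.02 without pool 1 of the initial state. The summed FPKM of the 4 synthases lay between 230 and 258 in the initial state and between 232 and 259 in steatosis. CERS2 made up 60.2% of this sum in pool 1 of the initial state, 70.3% to 71.9% in the other initial pools and 73.6% to 76.9% in steatosis. CERS4 made up 34% in pool 1, 22.4% to 24.2% in pools 2 to 4 and 17% to 20.7% in steatosis. CERS5 stayed between 5.1% and 6.29% and CERS6 under 1% in every library.

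DEGS1 (gene 100135677, chromosome 10, 12529021 to 12568447) stood at 33.65, 30.23, 35.17 and 27.92 FPKM before the diet and at 34.9, 32.96, 36.78 and 33.49 FPKM after it. Each steatosis pool exceeded the initial pool of its number, but the groups overlapped. The log2 fold change was 0.13 (95% interval -0.09 to 0.34, adjusted p = 0.351) and -0.15 with the median ratio scaling. The interval corresponds to a fold of 0.94 to 1.27. Its gene model overlaps those of NVL (3557 bases, 3.78 to 5.7 FPKM) and LOC100627222 (20 bases, 2.49 to 3.95 FPKM) and a long non-coding RNA that was not analysed here.

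SGMS1 (gene 100037303, chromosome 14, 99147266 to 99458111), which transfers phosphocholine to ceramide in the Golgi, stood at 7.96, 9.02, 8.53 and 8.57 FPKM before the diet and at 9, 13.48, 13.4 and 11.75 FPKM after it. Pool 1 of steatosis lay within the range of the initial state and the other 3 above it. The mean rose from 8.52 ± 0.434 to 11.9 ± 2.1 FPKM (SD, n = 4 pools). Its log2 fold change was 0.46 (SE 0.14, 95% interval 0.16 to 0.76, adjusted p = 0.0304). The exact permutation test gave a two-sided p of 0.0571. The call was lost without pool 1 or 3 of the initial state (adjusted p = 0.0624 and 0.0558) and without pool 2, 3 or 4 of steatosis (adjusted p = 0.0865, 0.0847 and 0.0717). Without pool 1 of steatosis the log2 fold change was 0.59 (adjusted p = 0.00629).

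UGCG (gene 100152737, chromosome 1, 252651850 to 252690817), which opens the route to glycosphingolipids, stood at 5.77, 4.65, 5.11 and 4.71 FPKM before the diet and at 8.1, 6.24, 6.74 and 4.2 FPKM after it. Pools 1, 2 and 3 of steatosis lay above all initial pools, and pool 4 lay below them. The log2 fold change of 0.28 (SE 0.19, 95% interval -0.13 to 0.7, adjusted p = 0.274) did not pass. Without pool 4 of steatosis it was 0.46 with an adjusted p of 0.0501, and with the median ratio scaling it was 0.01. Without pool 1 of the initial state it was 0.35.

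Ratios between enzymes within a library do not depend on scaling between libraries, and 6 of them were compared. The ratio of SPTLC2 to SPTLC1 was 0.574, 0.764, 0.775 and 0.677 in the initial pools and 1.29, 1.31, 1.09 and 1.19 in steatosis. SPTLC1 was thus the more abundant transcript of the pair in all initial pools and SPTLC2 in all steatosis pools, and the mean ratio was 1.75-fold higher on the log scale (two-sided exact permutation p = 0.0286, adjusted over the 6 ratios 0.0857). The ratio of CERS4 to CERS2 was 0.564, 0.344, 0.311 and 0.318 in the initial pools and 0.221, 0.225, 0.226 and 0.282 in steatosis. Every steatosis pool lay below every initial pool, with a mean log2 difference of -0.65 (exact permutation p = 0.0286, adjusted 0.0857) that was -0.45 without pool 1 of the initial state. Neither of these differences passed after adjustment. The smallest p of the design is 0.0286, which limits what the adjusted value can reach.

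The other ratios overlapped between groups. CERS5 to CERS2 lay between 0.0725 and 0.0849 in the initial state and between 0.0695 and 0.0828 in steatosis (mean log2 difference -0.03, exact permutation p = 0.6). CERS6 to CERS2 differed by -0.37 (p = 0.371 by the same exact test). UGCG to SGMS1 was 0.725, 0.516, 0.599 and 0.55 in the initial pools and 0.9, 0.463, 0.503 and 0.357 in steatosis (exact permutation p = 0.571). The spread was larger in steatosis, where pool 1 held the highest UGCG with the lowest SGMS1 and pool 4 the lowest UGCG. SPTLC3 to SPTLC2 stayed at or under 0.0269 in every library (exact permutation p = 0.6). The adjusted p of these 4 ratios was 0.6.

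**Figure D3:**
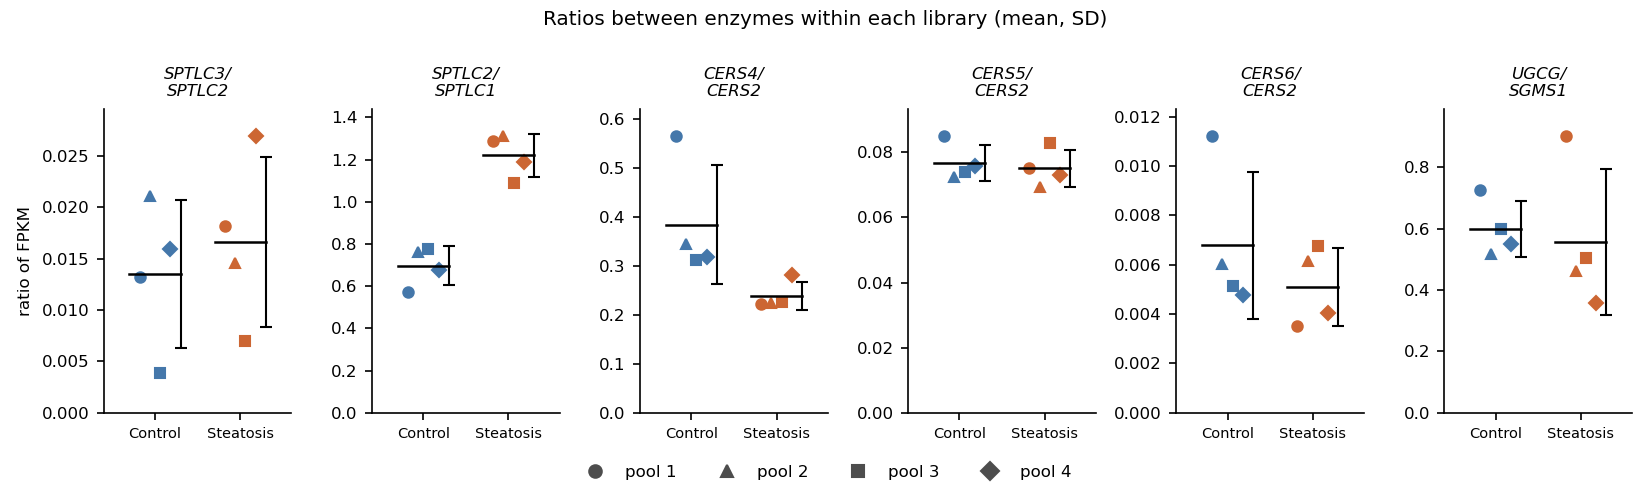
Ratios of FPKM between enzymes of the same library (vertical axes, each from 0) in the 4 pools of the initial state (Control, blue) and of steatosis (orange), with the mean (line) and SD (bar) of the plain ratios and the pool number (symbol). SPTLC2/SPTLC1 lies below 1 in all initial pools and above 1 in all steatosis pools, and CERS4/CERS2 is lower in all steatosis pools.

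Around these enzymes, 73 other genes of sphingolipid metabolism were found in the files, and 64 passed the filter. By an adjusted p under 0.05, 29 were higher and 2 were lower, with a median log2 fold change of 0.36 against 0.25 over all genes, of which 26.7% were higher and 2.28% lower. By the limits of the study 13 were higher and 0 lower, against 6.01% and 0.334% of all genes. With the median ratio scaling 14 were higher and 4 lower, against 11.6% and 9.76%, and the median was 0.09. The counts by role that follow are small and are to be read against these shares. Without pool 1 of the initial state 26 were higher and 2 lower. With the pool number as a block COL4A3BP (adjusted p = 0.0599), GAL3ST1 (0.0651) and NEU1 (0.0687) lost the call, and GLTP (0.0497) and ASAH2 (0.0209) gained it.

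Genes close to synthesis showed small differences in both directions. Of the 4 tested regulators and small subunits of serine palmitoyltransferase, ORMDL3, a brake on that enzyme, rose from 129 ± 15.8 to 175 ± 4.56 FPKM (SD, n = 4 pools; log2 fold change 0.44, adjusted p = 0.0109), without a call after the median ratio scaling (0.17, adjusted p = 0.33), and the other 3 did not pass. Neither of the 2 tested genes among the other enzymes of the route passed, among them KDSR, which reduces the first product (log2 fold change -0.06, adjusted p = 0.738). CERS1 and CERS3 lay under the filter, CERS1 at 0.04 to 0.18 FPKM and CERS3 listed at 0 in 7 libraries and at 0.01 in the remaining one. Of the 8 tested genes that supply very long chain acyl-CoA, 2 were higher and 2 lower (0 and 2 with the median ratio scaling), and DBI, the acyl-CoA binding protein, was the most abundant (log2 fold change 0.11, adjusted p = 0.55). In ceramide transport and phosphorylation 1 of 5 was higher, 0 without pool 1 of the initial state, and with the median ratio scaling 0 were higher and 1 lower. GLTP, a glycolipid transfer protein, had a log2 fold change of 0.33 (adjusted p = 0.0737).

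Lysosomal glycosphingolipid breakdown and the ceramidase list, which includes their relative NAAA, had the highest medians of the roles examined. Roles outside breakdown also lay above the 0.13 of the synthesis enzymes, among them glycosphingolipid synthesis at 0.53. In lysosomal glycosphingolipid breakdown 9 of 10 genes were higher and 0 lower, 6 of them by the limits of the study, with a median log2 fold change of 1.17. PSAP, the precursor of the saposins, rose from 114 ± 6.69 to 336 ± 24.6 FPKM (log2 fold change 1.56), and HEXA, a subunit of lysosomal hexosaminidase, rose from 31.2 ± 2.39 to 62.5 ± 2.89 FPKM (1; SD, n = 4 pools each). With the median ratio scaling 7 of the 10 were higher, and without pool 1 of the initial state 8. Of the 4 tested genes of the ceramidase list 3 were higher. With the median ratio scaling 2 were, ASAH1 and NAAA. ASAH1, the acid ceramidase, rose from 10.9 ± 1.11 to 35.2 ± 6.49 FPKM (log2 fold change 1.67, adjusted p = 6.09e-05), and NAAA, its relative that hydrolyses N-acylethanolamines, from 12.4 ± 2.32 to 30.2 ± 5.53 FPKM (1.28, adjusted p = 0.000549). The median of the list, 1.25, lay between NAAA and ASAH2 (1.21, adjusted p from limma 0.0984). ASAH2 did not pass and reached 0.3 FPKM in only 4 libraries. Macrophage markers, 8 of 12 of them higher, rose in the same comparison, and their part was not tested.

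In the list of sphingomyelin synthesis and breakdown 3 of 8 genes were higher and 0 lower. With the median ratio scaling only SMPDL3A of this list was higher. SMPDL3A, a secreted relative of acid sphingomyelinase that is known to act on nucleotides, stood at 4.55, 3.43, 2.63 and 3.97 FPKM before the diet and at 40.77, 50.19, 45.53 and 25.25 FPKM after it (log2 fold change 3.42, SE 0.23). SMPD3, a neutral sphingomyelinase, rose from 5.58 ± 2.07 to 11.2 ± 1.28 FPKM (1.05, adjusted p = 0.00704) but had an adjusted p of 0.0572 with the median ratio scaling. SMPD2 and SMPD4 of the same list did not pass (0.12 and 0.13, adjusted p = 0.439 and 0.443). SMPD1, the acid sphingomyelinase, had a log2 fold change of 0.01 (adjusted p = 0.959) and SGMS2, the second sphingomyelin synthase, one of 0.24 (adjusted p = 0.378), and both were -0.26 and -0.01 after scaling.

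In glycosphingolipid synthesis, which here includes the galactosylceramide branch beside that of UGCG, 4 of 8 genes were higher and 0 lower. The number higher was 2 with the median ratio scaling and 3 without pool 1 of the initial state. A4GALT, which makes globotriaosylceramide, stood at 1.11, 1.09, 1.2 and 1.17 FPKM before the diet and at 2.52, 2.46, 2.04 and 3.16 FPKM after it (log2 fold change 1.07, adjusted p = 0.000976). In sphingosine 1-phosphate metabolism 3 of 8 tested genes were higher by the 0.05 rule and 0 by the limits of the study, whereas with the median ratio scaling 0 were higher and 1 lower. ALDH3A2, the most abundant, had a log2 fold change of 0.08 (adjusted p = 0.617). Among its transporters and receptors 3 of 7 were higher, and 2 with the median ratio scaling. S1PR2 rose from 0.465 ± 0.188 to 1.33 ± 0.394 FPKM and S1PR3 from 0.295 ± 0.07 to 0.968 ± 0.262 FPKM (log2 fold changes 1.36 and 1.42), both from low levels.

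**Figure D4:**
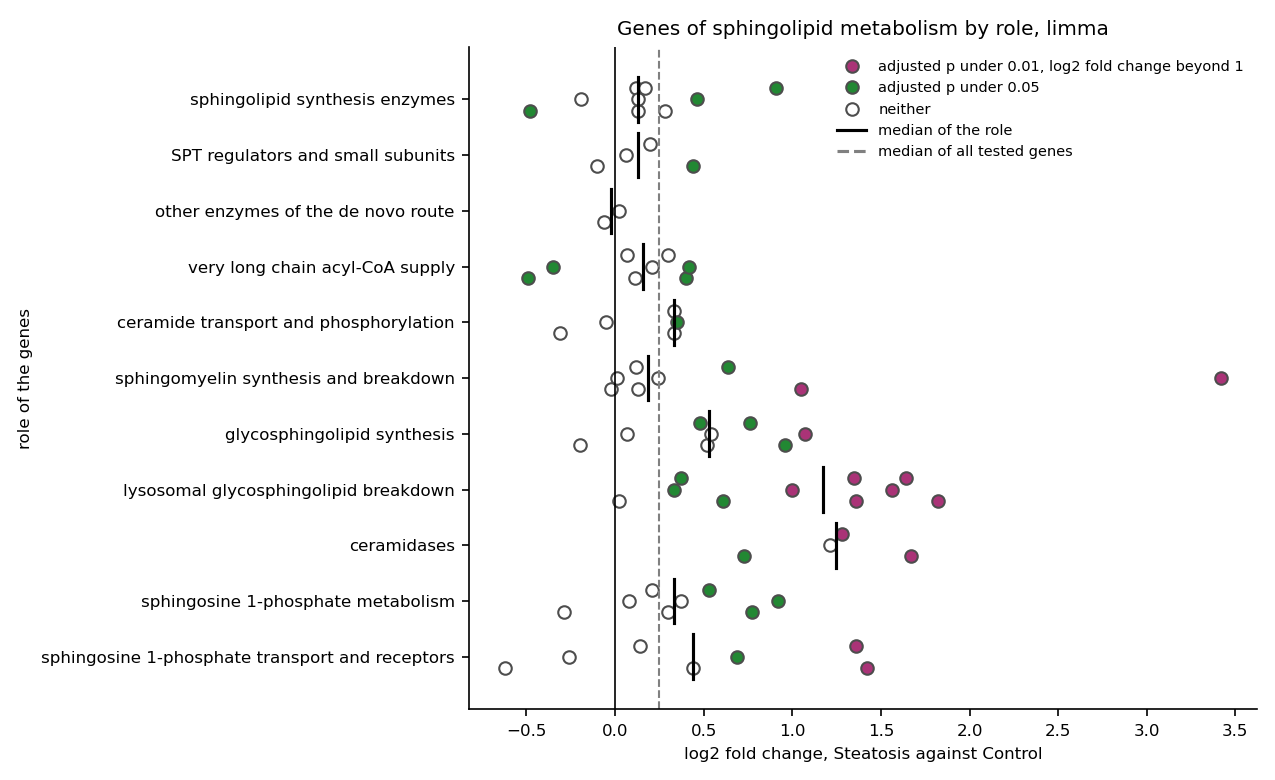
Log2 fold change of steatosis against the initial state (horizontal axis) for every tested gene of sphingolipid metabolism, grouped by role, with the median of each role (black bar) and of all tested genes (dashed line, 0.25). Points of lysosomal breakdown and of the ceramidase list lie furthest to the right as groups, with medians of 1.17 and 1.25, and the synthesis enzymes have a median of 0.13. The ceramidase list includes NAAA, which hydrolyses N-acylethanolamines.

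SPTLC2 was the member with the smallest adjusted p, and its pattern was compared with those of 12116 other tested genes with an assigned symbol. The highest Pearson correlations of log2(FPKM + 0.1) over the 8 libraries were those of RAB31 (r = 0.997), ARMC10 (0.995) and HCLS1 (0.993). All of them share the libraries and the difference between groups. After each group was set to its own mean the correlations were 0.95, 0.9 and 0.88. These genes were chosen by their correlation over the same 8 libraries, so high values within groups follow in part from that choice. RAB31 had a mean of 2.94 FPKM in the initial state and 6.86 FPKM in steatosis, ARMC10 of 15.5 and 23, and HCLS1 of 5.2 and 11.2.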

How the data were processed

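The authors cleaned the reads and aligned them with HISAT2 2.0.4 to Sus scrofa 11.1, followed by assembly with StringTie and quantification with Bowtie2 2.2.5 and RSEM 1.2.12 (versions from the submitters' processing notes). The authors deposited FPKM, normalized for transcript length and mapped reads of each library, and no further scaling is stated. Summed FPKM lay between 511863 and 545731 per library. Fragment counts were not used, and the spread between pools (SD) stands for precision. The authors' own pairwise fold changes, p-values and FDR were not used, only the gene lengths listed beside them. Coordinates are those of RefSeq genes of Sscrofa11.1, matched by gene ID.

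Groups were compared with limma 3.58.1 (R 4.3.3) on log2(FPKM + 0.1), allowing the variance to follow the mean, with Benjamini-Hochberg adjustment over all genes passing the filter, which were 13175. Fold changes on this scale understate those of low genes. Single members and ratios were compared by two-sided exact permutation tests (Python 3.11.15, scipy 1.17.1). The fit was tested on simulated data: of 50 genes changed by 0.5 on the log2 scale 8 were recovered, of 50 changed by 1 33 and of 50 changed by 2 47, among 13175 genes, with 6 false calls. The simulation changed 200 genes, whereas 3519 were called higher and 300 lower in the data. With fewer changed genes the adjustment is stricter. The recovery counts therefore do not measure how often differences of the size found for CERS4 and SGMS1 are missed here.

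Replicates are pools of 2 pigs. Pool numbers were taken to pair the groups, which no source states, since deviations from the group means correlated at 0.163, 0.35, 0.317 and 0.247 for pools 1 to 4. Pools of unequal number were not correlated, so these values cannot show that equal numbers hold the same pigs. The fit with this block was an alternative, as were other scalings, filters, a pseudocount of 1, limma's treat test and leaving out each library. The members and gene lists were chosen with earlier results of these data known. The genes named were all members and, for each role, at most 4 genes past the limits of the study, taken by adjusted p, or else the most abundant gene, and some genes that this rule names are not reported here. SMPD1, SMPD2, SMPD4, SGMS2, CERS1, CERS3, COL4A3BP, GAL3ST1, NEU1 and ASAH2 were named after their values were seen, as were the markers TREM2, CD14 and CD5L.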

Additional observations from a re-analysis of the deposited data

Results flagged for a closer look

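In groups of 4 pools, 80 sets of values were searched for a pool set apart from the other 3 by a gap above the 95% critical value of Dixon's test, which chance gives in about 1 of 20 sets, and 7 were found. Of these, 5 concerned pool 1 of the initial state. Its CERS2 level of 138 FPKM lay below the others (175 to 181), its CERS5 level of 11.8 FPKM lay below 13.2 to 13.3, and its ratio of CERS4 to CERS2 of 0.564 lay above 0.311 to 0.344. In the same pool the skeletal muscle markers summed to 2777 FPKM (0.82 to 20.8 in the others) and the stomach mucosa markers to 1516 FPKM (5.52 to 28.4). The part of these tissues in the enzyme levels was not tested. Pool 4 of the initial state had hepatocyte markers at a sum of 89527 FPKM (56956 to 62361 in the others). Most of this excess was that of ALB alone, at 71002.95 FPKM there and at 41268.1 to 45743.23 FPKM in the others. HNF4A (48.89 FPKM) and APOB (443.79 FPKM) had their lowest initial values in that pool, and APOA1 (4902.5 FPKM) its highest. Pool 4 of steatosis had a ratio of CERS4 to CERS2 of 0.282 (0.221 to 0.226 in the others).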

How the results depend on the processing

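SPTLC2 kept its call and direction under every alternative except that no enzyme passed limma's treat test with its bound at 1 on the log2 scale. With each library left out in turn the enzymes higher numbered 1 to 2 and those lower 0 to 1. With the upper quartile or the median ratio scaling (the latter also with the replicate block, chosen after seeing the data) 1 enzyme was higher, and the differences of SPTLC1 (-0.11 and -0.14), CERS2 (-0.08 and -0.11), CERS5 (-0.11 and -0.14) and DEGS1 (-0.12 and -0.15) turned negative. Of the other sphingolipid genes these scalings left 17 and 14 higher (17 with the block) and 4 lower by the median ratio, with or without the block. A single gene was lower with a common sum or no filter, and 0 to 2 with each library left out. By the limits of the study 8 were higher with a pseudocount of 1 or with the block and median ratio scaling together, and 2 by the treat test. The replicate block on FPKM as deposited (pairing by pool number) changed no call of an enzyme. The paired differences of the ratios equal the unpaired ones (0.81 for SPTLC2/SPTLC1), and 4 pairs cannot give an exact p under 0.125. SPTLC3/SPTLC2 turned from 0.38 to -0.49 with a pseudocount of 0.1 on both genes, by construction for so low a gene, and ranged from -0.14 to 0.75 with each library left out. CERS5/CERS2 ranged from -0.08 to 0.02 and UGCG/SGMS1 from -0.44 to 0. Where not stated, the cause was not tested. SPTLC3 rests on few fragments by the estimate given, and pools of 2 pigs give no spread between animals.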

Other observations

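Ratios between an enzyme of breakdown and one of synthesis of the same lipid were formed after the values were seen and are given without a test. ASAH1 to CERS2, acid ceramidase to the main ceramide synthase, was 0.0693, 0.0668, 0.0582 and 0.0652 in pools 1 to 4 of the initial state and 0.166, 0.234, 0.199 and 0.151 in steatosis. SMPD1 to SGMS1, acid sphingomyelinase to sphingomyelin synthase, went the other way, with 1.66, 1.91, 1.79 and 1.71 in the initial pools and 1.48, 1.12, 1.16 and 1.42 in steatosis. Neither ratio overlapped between groups.

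Some genes of the pathway were found mainly in pool 1 of the initial state, the pool with muscle and stomach markers. SPTSSB, a small subunit of serine palmitoyltransferase, was listed at 1.79 FPKM there and at no more than 0.04 FPKM in the other 7 libraries. FA2H, which hydroxylates the fatty acid of ceramides, was at 0.86 FPKM there and at most at 0.23 FPKM elsewhere. SGPP2, a sphingosine 1-phosphate phosphatase, was at 0.41 FPKM there and at most at 0.14 FPKM elsewhere.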
